A study of Mus musculus with 15 samples.

Results

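The nuclear genes for the subunits of oxidative phosphorylation were followed across total and polysomal RNA of mouse neural stem cells. Members were the genes whose symbol on the array platform begins as those of complexes I to V do: Nduf with a, b, s, v or c and a digit, Sdha to Sdhd, Uqcr, Cox4 to Cox8, and Atp5. This rule used no measured value and found 78 of the 12393 genes measured. They comprised 32 genes of complex I, 4 of complex II, 8 of complex III, 17 of complex IV and 17 of complex V. From textbook knowledge, 14 were classed as core subunits (mostly redox-active or catalytic proteins, and the large core proteins of complex III) and 57 as accessory subunits. Not every core gene is of these kinds, nor is every gene of these kinds core. Atp5c1, the shaft of complex V, was counted as core, and the complex II membrane anchors Sdhc and Sdhd as accessory. Medians by class depend on these assignments, which were made with earlier results of these data known. Of the remaining genes, 6 were tissue isoforms of complex IV, and Cox7a2l is a supercomplex assembly factor named like a subunit. Ndufa4 was counted in complex IV, to which the protein is now assigned.

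The cells came from female mice aged 6 weeks of the strain given as C57/B16 and were grown as neurospheres, free-floating clusters of neural stem and progenitor cells. Cultures were left as controls or treated for 48 h with CD95L-T4, a trimerised ligand of the death receptor CD95 (Fas). The RNA measured was either that of the whole cell (total) or that of mRNAs carrying several ribosomes (polysomal), and was applied to Affymetrix mouse arrays. Control cultures gave 4 total and 4 polysomal arrays, and CD95L-T4 cultures gave 4 total and 3 polysomal arrays. No other allele or agent is named in any group. The titles call the replicates biological, without saying whether they came from separate animals or cultures, so p-values measure the spread between these samples. Per the labels, total RNA was isolated with a column kit and given as total RNA, whereas polysomal RNA was isolated with phenol and chloroform and given as polyA RNA. RNA fraction, extraction and molecule therefore cannot be told apart, and every difference between fractions below is one between these preparations.

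Oxidative phosphorylation is carried by 5 complexes in the inner mitochondrial membrane. Complexes I and II pass electrons from NADH and succinate to ubiquinone, complex III passes them on to cytochrome c, complex IV reduces oxygen, and complex V makes ATP from the resulting proton gradient. The mitochondrial genome encodes a few catalytic subunits of complexes I, III, IV and V. All other subunits are made on cytosolic ribosomes from the nuclear genes described here, and imported. Neural stem cells are known to lean on glycolysis and to raise oxidative phosphorylation as they differentiate.

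Values are log2 intensities that the authors had normalised between arrays, so a difference between fractions is relative to the other transcripts on the arrays, not an amount per cell. A change was called where limma's p, adjusted by Benjamini and Hochberg over all probe sets, was below 0.05. Errors of differences are limma's moderated standard errors (SE). Array medians lay between 6.83 and 6.98, and arrays of the same group correlated at 0.994 to 0.998. The neural stem cell markers Sox2 (11.40), Nes (10.86), Vim (13.12) and Fabp7 (13.83) were bright, whereas Prom1 was dim (3.77). All 5 microglial markers and all 4 endothelial markers averaged below the median gene at 7.36, with highest values of 5.50 and 5.31. The neuronal list had 1 of 7 members above that median (Map2, 9.15), the astrocyte list 1 of 5 (S100b, 8.18) and the oligodendrocyte list 1 of 4 (Cnp, 10.39). These are bulk samples, in which fewer cells of a type and less RNA per cell cannot be told apart.

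In control cultures the subunit genes parted into opposite directions between the RNA fractions. Of the 57 accessory genes, 48 were higher in polysomal than in total RNA, 5 were lower and 4 were not called, with a median difference of 0.58. Of the 14 core genes, 1 was higher, 8 were lower and 5 were not called, with a median of -0.63. Over all 78 members, 53 were higher and 13 lower (median 0.51), beside 33.5% of all genes higher and 23.2% lower (median 0.10). The core median was thus negative and the accessory median positive, on opposite sides of that of all genes. Classes were set with earlier results of these data known, so this split is a description rather than a blind test. In the plot of fraction differences by complex, the core genes are the lowest of complexes II, III and V. In complex I they are spread among the accessory genes, with Ndufs1 lowest and a core median of -0.04.

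**Figure D1:**
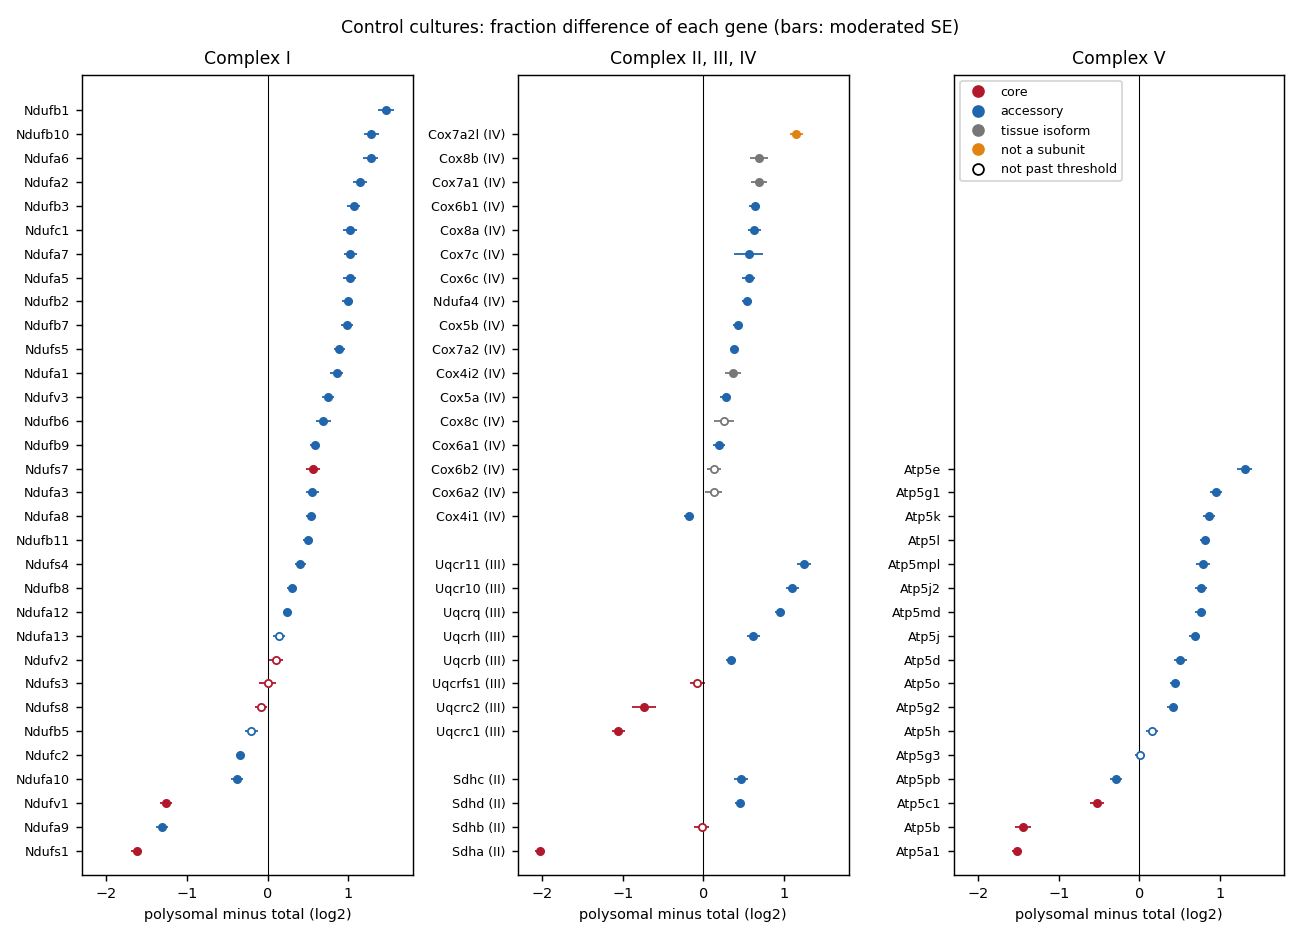
Difference between polysomal and total RNA (log2) in control cultures for each of the 78 genes, sorted within complexes I to V. Points are limma estimates from 4 polysomal and 4 total arrays and bars are moderated SEs; filled points passed the threshold. Sdha lies lowest at -2.03 and Ndufb1 highest at 1.47.

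Complex II, succinate dehydrogenase, also belongs to the citric acid cycle and has only nuclear-encoded subunits, so all of its parts are seen here. Sdha, the flavoprotein that oxidises succinate, read 11.33, 11.34, 11.42 and 11.39 in the control total arrays. In the control polysomal arrays it read 9.38, 9.34, 9.34 and 9.32. The groups lay far apart, and the 4.07-fold fall (-2.03 ± 0.06 SE, limma adjusted p = 1.36e-12) was the largest of any member. A further Sdha probe set fell by 1.71. The membrane anchor Sdhd, by contrast, rose from 10.66, 10.67, 10.67 and 10.57 to 11.02, 11.11, 11.10 and 11.13, a 1.36-fold rise (0.45 ± 0.06, adjusted p = 3.97e-06). Sdhc, the other anchor, rose by 0.47 ± 0.09 (adjusted p = 0.00019). Sdhb, the iron-sulfur subunit, read 11.16, 11.17, 11.05 and 11.13 in total and 10.96, 11.07, 11.12 and 11.27 in polysomal RNA. These groups overlapped, and the difference was -0.02 (95% interval -0.23 to 0.18, adjusted p = 0.861). The 4 subunits of this complex, needed in equal copy number, thus spanned a fall, no call and rises.

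The promoters of these opposite-moving genes are shown because many subunit genes are known targets of the nuclear respiratory factor NRF1 and of GABPA (NRF2), and YY1 has been described at them too. Windows of 250 bases before to 50 after the annotated start (RefSeq, GRCm38.p6) were matched for 64 of the 78 members and 9882 of all 12393 genes. They were searched on both strands for GCGC followed by any base, T and GCGC (NRF1), CCGGAAG (GABPA) and AAGATGG (YY1), whose letters do not make one motif part of another. The NRF1 letters were in the windows of 13 members (20.3%, beside 8.63% of all genes), the GABPA letters in 16 (25%, beside 15.03%) and the YY1 letters in 9 (14.1%, beside 6.89%). At least 1 of these was present in 6 of 11 core genes (54.5%) and 28 of 49 accessory genes (57.1%), beside 27.0% of all genes. Split by direction in control cultures, at least 1 of them was present in 25 of 45 genes called higher (55.6%) and 4 of 9 called lower (44.4%). The NRF1 letters were in 9 of the former and 2 of the latter, the GABPA letters in 12 and 0, and the YY1 letters in 7 and 2. Differences between these shares were not tested. The 150 bases before the start are given for Sdha and Sdhd, which moved in opposite directions, and for Uqcr11, an accessory gene that rose strongly. They are also given for Ndufs3, a core gene not called in the fraction contrast of control cultures. Each is written 5′ to 3′ on the gene's own strand with the motif matches in capitals.
Sdha, chr13:74350241-74350390, minus strand: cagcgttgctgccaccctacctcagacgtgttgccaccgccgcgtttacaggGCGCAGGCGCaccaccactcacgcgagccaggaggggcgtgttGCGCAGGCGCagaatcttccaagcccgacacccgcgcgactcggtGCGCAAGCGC
Sdhd, chr9:50603850-50603999, minus strand: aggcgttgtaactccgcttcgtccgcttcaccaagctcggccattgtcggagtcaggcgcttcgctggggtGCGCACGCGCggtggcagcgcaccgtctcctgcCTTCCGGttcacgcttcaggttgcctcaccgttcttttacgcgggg
Uqcr11, chr10:80406822-80406971, minus strand: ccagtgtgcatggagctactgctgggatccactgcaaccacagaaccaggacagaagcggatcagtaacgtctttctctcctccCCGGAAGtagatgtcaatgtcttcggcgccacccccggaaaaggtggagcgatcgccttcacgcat
Ndufs3, chr2:90904722-90904871, minus strand: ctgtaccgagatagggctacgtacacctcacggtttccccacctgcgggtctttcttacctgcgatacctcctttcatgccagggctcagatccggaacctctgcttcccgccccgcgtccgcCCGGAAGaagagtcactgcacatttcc
Sdha has NRF1 matches that begin 98, 55 and 10 bases before the start. In Sdhd an NRF1 match begins 79 bases and a GABPA match 46 bases before it. The GABPA match begins 66 bases before the start in Uqcr11 and 27 bases before it in Ndufs3. These matches are letters in a window; whether any factor binds there was not measured.

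Complex I was represented by 6 core and 26 accessory genes. Ndufs1, its largest subunit and part of the module that takes in electrons, read 10.59, 10.69, 10.63 and 10.69 in control total and 9.11, 9.0, 9.02 and 8.97 in control polysomal RNA. It fell 3.08-fold (-1.63 ± 0.06, adjusted p = 1.59e-11), with groups well apart. Ndufv1, which binds NADH and flavin, fell by 1.26 ± 0.07 (adjusted p = 3.82e-10). The other core genes did not follow them. Ndufs3, in the arm that reaches into the matrix, averaged the same in both fractions, a difference of 0.00 (95% interval -0.22 to 0.22). Ndufs8 (-0.08, interval -0.25 to 0.08) and Ndufv2 (0.10, interval -0.09 to 0.29), both iron-sulfur proteins, were not called either at their brightest probe sets. Of the 3 probe sets of Ndufv2, however, the other two rose, by up to 0.35, and the mean over its probe sets rose by 0.26 (limma adjusted p = 0.0147). Of the 6 probe sets of Ndufs8, 1 fell (by 0.24). Ndufs7, which carries the last iron-sulfur cluster before ubiquinone, rose by 0.56 ± 0.08 (adjusted p = 1.36e-05) and was the only core gene of the 14 called higher at its brightest probe set.

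Among the accessory genes of complex I, 21 rose, 3 fell and 2 were not called (median 0.72). Ndufb1 rose most, from 8.03, 7.95, 7.95 and 7.92 to 9.55, 9.42, 9.35 and 9.40, a 2.77-fold difference (1.47 ± 0.10, adjusted p = 1.72e-09). Ndufb10 rose from 10.57, 10.60, 10.39 and 10.54 to 11.78, 11.80, 11.84 and 11.83, or 2.44-fold (1.29 ± 0.09, adjusted p = 1.93e-09). Both belong to the membrane arm of the complex, and the fractions did not overlap in either gene. Ndufa9 went the other way, from 11.27, 11.23, 11.28 and 11.31 to 9.97, 9.91, 9.98 and 9.99 (2.48-fold lower, -1.31 ± 0.07, adjusted p = 1.38e-10). Its protein sits near the ubiquinone site and, with that of Ndufa10 (-0.38), is among the larger accessory subunits. Ndufc2 was the other that fell (-0.34), and Ndufb5 missed the threshold at its brightest probe set (-0.20, limma adjusted p = 0.0501). The other probe set of Ndufb5 was called lower (-0.375), whereas the other probe set of Ndufa10 was not called (-0.06).

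In complex III the split followed the classes. Uqcrc1 and Uqcrc2 are the large core proteins that face the matrix. Uqcrc1 read 11.10, 11.07, 11.19 and 11.17 in control total and 10.06, 10.06, 10.10 and 10.09 in control polysomal RNA, a 2.08-fold fall (limma adjusted p = 3.06e-09), with no overlap. Uqcrc2 fell by 0.74 ± 0.15 (adjusted p = 0.000378), a call that was lost with a beta-actin covariate for RNA quality (-0.52, adjusted p = 0.0896). Uqcrfs1, the Rieske iron-sulfur protein, was not called (-0.08, interval -0.27 to 0.12). All 5 small accessory subunits rose (Uqcr11, Uqcr10, Uqcrq, Uqcrh and Uqcrb, by 1.25 to 0.34). Uqcr11 rose from 11.28, 11.18, 11.07 and 11.21 to 12.48, 12.35, 12.47 and 12.42 (2.37-fold, adjusted p = 1.48e-09), and Uqcr10 rose by 1.10 ± 0.08, or by up to 2.19 in its other probe sets. Cyc1, the catalytic cytochrome c1 of this complex, lies outside the naming rule and fell by 0.39.

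The catalytic subunits of complex IV, cytochrome c oxidase, are encoded in mitochondria, so its nuclear genes held no core member. Of its 10 general accessory genes 9 rose and 1 fell (median 0.48). The falling gene was Cox4i1, the largest nuclear-encoded subunit, which read 12.89, 12.83, 12.85 and 12.88 in total and 12.65, 12.62, 12.69 and 12.75 in polysomal RNA. Its difference was small (-0.19 ± 0.06, adjusted p = 0.0135), although the fractions did not overlap. The call was lost with equal array medians (-0.09, adjusted p = 0.184) and with a beta-actin covariate for RNA quality (-0.20, adjusted p = 0.0985). Among the rises were Cox6b1 (0.64) and Cox8a (0.63), and Cox7a2l rose by 1.15 ± 0.08 (adjusted p = 2.44e-09). Cox7c, a small subunit, was read by dim probe sets only (6.86 for the brighter) and its rise of 0.56 had an SE of 0.18.

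The tissue isoforms Cox4i2, Cox6a2, Cox6b2, Cox7a1, Cox8b and Cox8c replace the general subunits in organs such as lung, muscle and testis. Their probe sets averaged 4.01 (Cox7a1) to 7.33 (Cox8c). Brightness depends on the probes as well as on RNA, and the table holds no detection calls, so presence was not decided. Cox8b rose from 5.22, 5.37, 4.97 and 5.17 to 5.73, 5.65, 5.98 and 6.13, Cox7a1 rose by 0.69, and Cox4i2 rose by 0.37. Those rises lay in the dim range, whereas Cox6a2 (0.13), Cox6b2 (0.13) and Cox8c (0.26) were not called.

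Complex V, ATP synthase, showed the class difference in the catalytic head. Atp5a1 and Atp5b form the ring that makes ATP, and Atp5c1 is the shaft that turns in it. Atp5b read 13.36, 13.35, 13.35 and 13.37 in control total and 11.86, 11.89, 11.90 and 12.00 in control polysomal RNA, a 2.72-fold fall (-1.45 ± 0.09, adjusted p = 1.06e-09). Atp5a1 fell by 1.52 ± 0.07 (adjusted p = 2.99e-11) and Atp5c1 by 0.52 ± 0.09 (adjusted p = 5.88e-05). Of the 14 accessory genes, 11 rose, 1 fell and 2 were not called (median 0.72). Atp5e, the small epsilon subunit bound to that shaft, rose from 11.80, 11.75, 11.65 and 11.66 to 13.16, 12.95, 12.99 and 12.98 (2.47-fold, 1.31 ± 0.09, adjusted p = 1.51e-09). In both Atp5b and Atp5e the fractions lay well apart, in opposite directions. Atp5pb, the b subunit of the stalk that holds the head in place, was the accessory gene that fell (-0.29 ± 0.08, adjusted p = 0.00398).

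The membrane ring of complex V is built from c subunits whose mature protein is the same from each of Atp5g1, Atp5g2 and Atp5g3, which differ in the import sequence. Atp5g1 rose from 11.58, 11.53, 11.35 and 11.42 to 12.41, 12.44, 12.46 and 12.37 (0.95 ± 0.07, adjusted p = 6.21e-09). Atp5g2 rose from 12.24, 12.29, 12.13 and 12.19 to 12.53, 12.57, 12.69 and 12.71 (0.41, adjusted p = 3.37e-05). Atp5g3 read 13.25, 13.25, 13.25 and 13.29 against 13.23, 13.29, 13.29 and 13.27, and its difference of 0.01 was not called (95% interval -0.11 to 0.13). The fractions were apart for the first and second of these genes and overlapped for the last. Whether their probe sets keep these related transcripts fully apart was not tested.

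**Figure D2:**
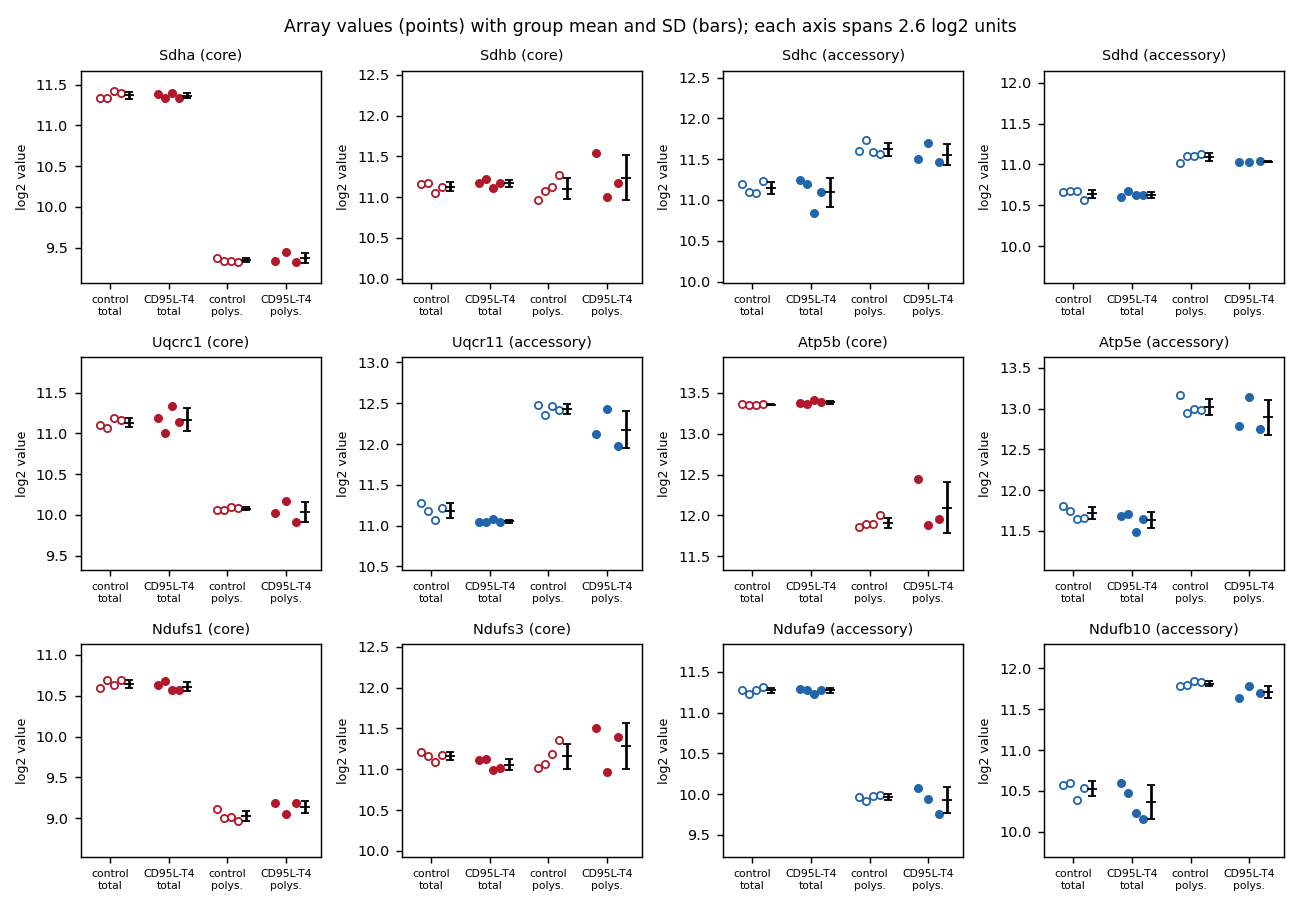
Normalised log2 value of 12 genes in every array of the 4 groups (open points control, filled points CD95L-T4), with group mean and SD; red marks core and blue accessory genes, and every axis spans 2.6 log2 units. Sdha, Uqcrc1, Atp5b, Ndufs1 and Ndufa9 drop in polysomal RNA, Sdhb and Ndufs3 stay level on average in control cultures, and the other 5 rise.

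The same fraction contrast in the CD95L-T4 cultures took its group means from arrays other than the controls, while the spread between arrays was estimated over all 15. With the spread of the compared groups alone, 48 members were higher and 10 lower in CD95L-T4 cultures. In the fit over all arrays, 45 of the 57 accessory genes were higher in polysomal RNA, 4 were lower and 8 were not called (median 0.48). Of the core genes 1 was higher, 7 were lower and 6 were not called (median -0.35). Over all members 49 were higher and 11 lower, beside 29.6% and 21.8% of all genes. The genes called higher in both cultures numbered 48 and those called lower in both 11, and none was called in opposite directions. At their brightest probe sets, those called in control cultures only were Atp5pb, Cox4i2, Cox6a1, Cox7c, Ndufa12, Ndufb8 and Uqcrc2. Atp5h alone was called in CD95L-T4 cultures only (0.29). Other probe sets of Uqcrc2 (-0.77), Cox6a1 (0.18) and Ndufa12 (-0.56 to 0.46) were, however, called in CD95L-T4 cultures too. The other probe set of Atp5h was called in control cultures (0.305). None of these genes showed a difference between cultures that passed the threshold, as the test of that difference below shows. Sdha fell by 1.99 in CD95L-T4 cultures, Atp5b by 1.29 and Uqcrc1 by 1.13, whereas Atp5e rose by 1.26 and Uqcr11 by 1.12. The core median there was set in part by single arrays: it was -0.51 without CD95L-T4 polysomal replicate 1 and -0.19 without replicate 2.

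**Figure D3:**
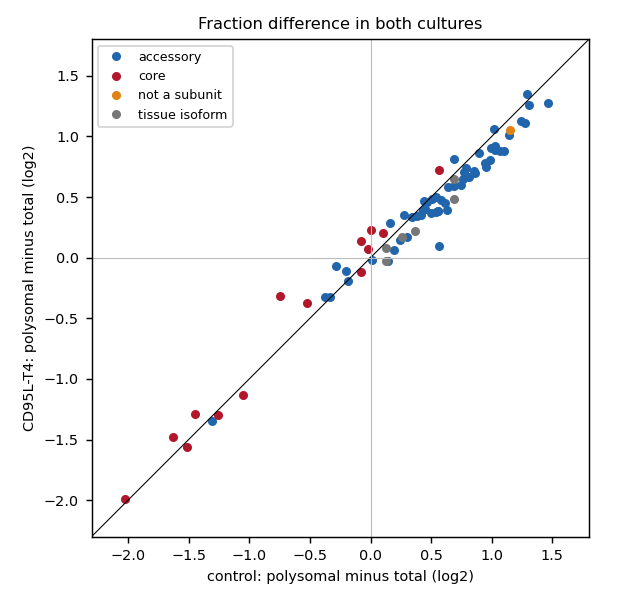
Difference between polysomal and total RNA (log2) of the 78 genes in control cultures (horizontal axis) and in CD95L-T4 cultures (vertical axis), coloured by class; the diagonal marks equal values. Sdha lies at the lower left (-2.03 and -1.99) and Ndufb1 (1.47 and 1.28) at the upper right.

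**Figure D4:**
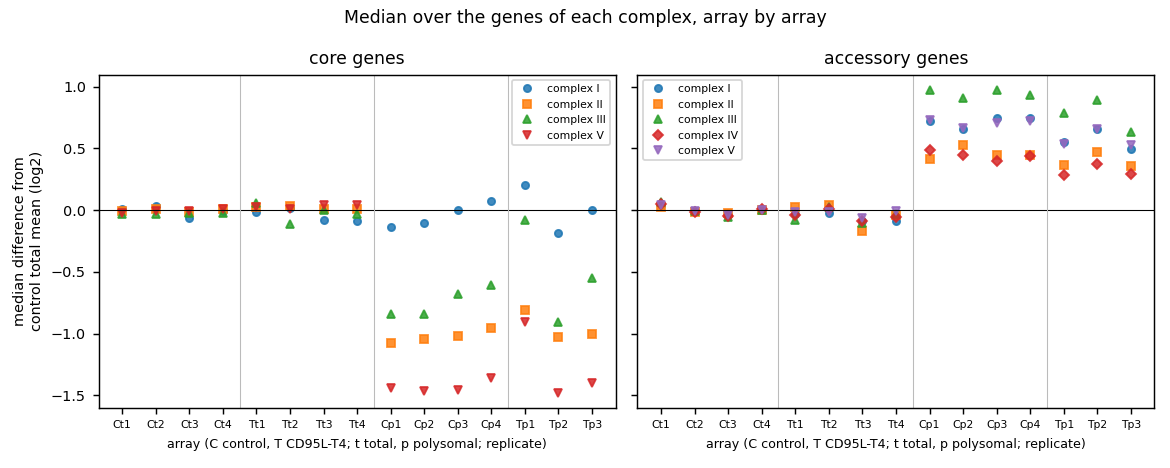
Median over the core (left) and accessory (right) genes of each complex in every array, as the log2 difference from the control total mean. Accessory medians rise in all 7 polysomal arrays for every complex, whereas core medians fall in complexes II, III and V, with complex I near 0.

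Of the 78 genes, 43 had several probe sets on the array. None had probe sets called in opposite directions in control cultures, and 1, Ndufa12, did in CD95L-T4 cultures. Its opposing probe set was dim (3.94) and fell by 0.56, whereas another rose by 0.46. A measure of RNA quality and the signal of added control transcripts moved with the fractions as well. The difference between the 3′ and 5′ beta-actin probe sets was 0.28 to 0.57 in total and 0.59 to 1.03 in polysomal arrays, and the added poly-A control transcripts averaged 7.41 to 8.59 and 8.18 to 9.86. With the beta-actin difference as a covariate, 49 members were higher and 10 lower in control cultures, beside 23.2% and 19.7% of all genes, and the core median was -0.49. In CD95L-T4 cultures the covariate left 49 higher and 8 lower, beside 21.1% and 18.4% of all genes, and a core median of -0.20. Atp5c1 was then no longer called there (-0.32, adjusted p = 0.106). With every array shifted to the same median, which moved the median of all genes from 0.10 to 0.19, 57 members were higher and 12 lower, beside 43.5% and 20.1% of all genes, and the core median was -0.54.

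Other mitochondrial genes were compared through lists chosen by function. The counts below are calls in the control fraction contrast, in which 33.5% of all genes were higher and 23.2% lower. The list of citric acid cycle enzymes left out the genes of complex II. All 16 measured enzymes on it fell in control polysomal RNA (median -0.83), among them Ogdh (-1.66), Dld (-1.48) and Cs (-1.32), the citrate synthase. Of 74 mitochondrial ribosomal proteins, 60 rose and 5 fell (median 0.80), with Mrps21 at 1.63. Of 33 measured factors that assemble the complexes, 23 rose and 4 fell (median 0.75), with Coa6 at 1.73 and Sdhaf4 at 1.39, whereas Lrpprc, which stabilises mitochondrial mRNAs, fell by 1.02. The 12 regulators of respiratory genes split evenly into 6 rises, such as Tfb2m (0.75) and Esrra (0.65), and 6 falls, such as Polrmt (-0.73). Of 48 cytosolic ribosomal proteins 25 rose and 2 fell (median 0.17). Of 8 measured related genes outside the naming rule, 3 rose, as Cycs (cytochrome c, 0.40) did, and 3 fell, as Cyc1 of complex III did. The mitochondrially encoded subunits were represented by 1 measured gene, ND5, which fell by 3.30. Its transcript is made inside mitochondria and translated by their own ribosomes. Sdha thus lay with the listed citric acid cycle enzymes, on the side of the falls. The other complex II genes, which belong to the cycle as well, did not: Sdhb was not called (-0.02), and Sdhc (0.47) and Sdhd (0.45) rose.

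CD95L-T4 left no called change among the subunit genes in total RNA. No member, and 0% of all genes, passed limma's adjusted threshold, and the median over members was -0.03 (core 0.00, accessory -0.05). At an unadjusted p below 0.05, 2 of 78 members were lower, beside 3.44% of all genes in either direction. Ndufb6, of the membrane arm of complex I, read 11.64, 11.64, 11.59 and 11.67 in control and 11.66, 11.48, 11.17 and 11.24 in CD95L-T4 cultures. Ndufs5, an accessory subunit of the same complex, read 10.96, 10.93, 10.81 and 10.87 in control and 10.83, 10.83, 10.58 and 10.62 in CD95L-T4 cultures. In both genes the groups overlapped, and their differences of -0.25 ± 0.09 and -0.18 ± 0.07 had an adjusted p of 0.997. The widest limits of the 95% intervals over all members were -0.51 and 0.49.

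In polysomal RNA, too, no member and 0% of all genes passed the adjusted threshold. This contrast shares the control polysomal arrays with the fraction contrast in control cultures. The median over members was -0.10, at 0.09 for core and -0.13 for accessory genes, beside 0.00 for all genes. The core median was 0 without CD95L-T4 polysomal replicate 1 and 0.19 without replicate 2. At an unadjusted p below 0.05, 19 members differed, beside 9.49% of all genes, and 18 of them were lower, beside 5.39% of all genes. The exception was Atp5pb (0.20 ± 0.08). Uqcr10, a small subunit of complex III, had the smallest p: it read 13.10, 12.95, 12.99 and 13.04 in control and 12.72, 12.90 and 12.57 in CD95L-T4 polysomal arrays. The groups did not overlap, but the difference of -0.29 ± 0.09 had an adjusted p of 0.473. Ndufa6 followed a like course, with 11.88, 11.76, 11.62 and 11.66 in control against 11.39, 11.72 and 11.27 in CD95L-T4 arrays (-0.27 ± 0.09, adjusted p = 0.474), and here replicate 2 lay within the control range. Ndufa4 (-0.22) had the second smallest p, before Ndufa6, and Uqcr11 (-0.25), Ndufa3 (-0.23) and Ndufb11 (-0.19) followed it.

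The CD95L-T4 polysomal arrays differed among themselves. Against the control polysomal mean, the accessory genes lay below it in 46, 40 and 50 of 57 cases in replicates 1, 2 and 3, with medians of -0.18, -0.03 and -0.22. The core genes lay above it in 11, 5 and 8 of 14 cases, with medians of 0.21, -0.04 and 0.06. Replicate 2 was thus close to the controls in both classes, and replicate 1 stood highest for the core genes. Atp5b, for example, read 12.45, 11.88 and 11.96 in those replicates against 11.86, 11.89, 11.90 and 12.00 in control polysomal arrays. Uqcrc2 read 11.12, 10.30 and 10.65 against 10.36, 10.36, 10.52 and 10.60. Only replicate 1 lay far above the controls in both genes. Replicate 2 also had the highest signal of the added poly-A controls (9.86, against 8.18 and 8.32 in the other replicates and 8.45 to 9.03 in control polysomal arrays). The beta-actin difference was 0.59, 0.68 and 1.03 in replicates 1, 2 and 3. The part of these measures in the differences between replicates was not tested.

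**Figure D5:**
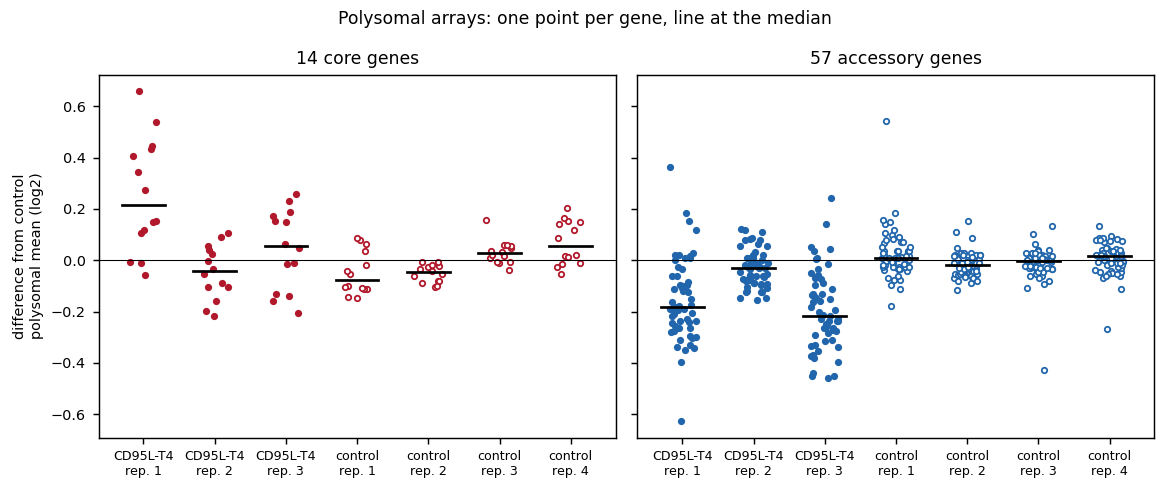
Log2 difference of each core (left) and accessory (right) gene from its control polysomal mean in the 3 CD95L-T4 and 4 control polysomal arrays; lines mark medians. Accessory medians are -0.18 and -0.22 in CD95L-T4 replicates 1 and 3 and -0.03 in replicate 2.

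Without CD95L-T4 polysomal replicate 2, which left 2 arrays in that group, 12 members were called lower and 2 higher, beside 3.29% and 3.08% of all genes. All 12 lower genes were accessory: Cox8a, Ndufa1, Ndufa2, Ndufa3, Ndufa6, Ndufa7, Ndufa13, Ndufb1, Ndufb3, Ndufb11, Uqcr10 and Uqcr11. Differences among them included -0.40 in Ndufa6 and -0.38 in Uqcr11. The higher genes were Uqcrfs1 (0.35), which is core, and Atp5pb (0.30). No member was called with all arrays or when any other array was left out.

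The difference of the CD95L-T4 effect between polysomal and total RNA was tested directly as an interaction. No member and 0% of all genes passed limma's adjusted threshold, and at an unadjusted p below 0.05 there was again no member, beside 3.99% of all genes. The median over members was -0.05, at 0.12 for core and -0.10 for accessory genes. Leaving out each array moved the core median between 0.015 and 0.20. Cox8a (-0.24 ± 0.12), Uqcr10 (-0.22 ± 0.12) and Uqcrc2 (0.42 ± 0.22) had the smallest p, followed by Atp5pb (0.22), Atp5g1 (-0.21) and Cox7c (-0.47), all at an adjusted p of 0.897. With 3 or 4 arrays a group, differences of this size were not resolved from the spread between arrays.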

How the data were processed

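Each array's RNA was biotin-labelled, per the labels. Values are deposited as log2, and the authors had normalised them between arrays and rounded them to 2 decimals; the normalisation method is not given in the sources used here. All 15 columns matched a sample, and groups come from the titles. Of 22690 probe sets, 64 controls were left out and 22626 tested. Probe sets with 1 gene (20380) gave 12393 genes, each represented by its brightest probe set; 7 probe sets of several genes that include a member name were not used. Group means were fitted in limma 3.58.1 (R 4.3.3) over 15 arrays with empirical Bayes moderation; tests were two-sided and p-values adjusted over the 22626 probe sets. Arrays carry no read depth, so their number limits the precision. The steps were tested on simulated data. Promoter windows came from a RefSeq table (GRCm38.p6); the first window of a gene was used.

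Members, classes and lists were chosen with earlier results of these data known. Named were the core genes and, per complex, up to 2 rises and 2 falls. Also named were the members of smallest p where fewer than 5 were called, tissue isoforms and up to 3 genes per list. Cox6b1, Atp5g2, Atp5g3 and others in the text were added after their values were seen. Ndufa6 met the rule for CD95L-T4 in polysomal RNA, and Cox8a and Atp5pb met it for the difference of effects. Other mentions of Ndufa6, Cox8a and Atp5pb were added after their values were seen. Alternatives were other scalings, removal of dim probe sets, a trended variance, array weights, a replicate block, the mean of all probe sets, a beta-actin covariate, the compared groups alone and leaving out each array.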

Additional observations from a re-analysis of the deposited data

Results flagged for a closer look

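Single arrays stood apart from the others of their group in 3 of the 126 groups of 4 arrays examined, where chance gives about 1 in 20. Ndufa9 read 11.23 in CD95L-T4 total replicate 3, against 11.28 to 11.29 in the other arrays of that group. Sdhd read 10.57 in control total replicate 4, against 10.66 to 10.67. Uqcrfs1 read 11.57 in control total replicate 1, against 11.47 to 11.48. Each gap was large only beside the narrow range of the other arrays, and was small beside the fraction differences of Ndufa9 and Sdhd.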

How the results depend on the processing

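The called directions of the fraction contrasts held under every alternative run. Values of named genes over the fraction contrasts and the CD95L-T4 effects together numbered 1349, of which 1313 kept direction and side of the threshold. Of those kept, 482 were of the control and 447 of the CD95L-T4 fraction contrast. The others came from the CD95L-T4 effects, where no named gene was called in the full fit. Lost calls numbered 8, all in fraction contrasts (Cox4i1 in both cultures, Uqcrc2 in control and Atp5c1 in CD95L-T4 cultures). Gained calls numbered 20, of which 5 were for CD95L-T4 in polysomal RNA. The 8 values that reversed, all in fraction contrasts, were uncalled in the full fit. In control cultures these were Ndufs8 (0.010 with equal array medians, 0.082 with the beta-actin covariate), Sdhb (0.070 and 0.048 likewise, and -0.078 to 0.026 leaving out each array) and Uqcrfs1 (0.015 with equal medians). In CD95L-T4 cultures they were Ndufs8 (0.056 with the covariate) and Sdhb (-0.083 to 0.188 leaving out each array). Scaling moved the medians of the control fraction contrast to 0.43 (members) and 0.53 (accessory) with quantile normalisation over all arrays, and to 0.60 and 0.68 with equal medians. In CD95L-T4 cultures they were 0.30 and 0.39, and 0.48 and 0.57. Averaging a gene's probe sets gave accessory medians of 0.635 (control) and 0.59 (CD95L-T4). In CD95L-T4 cultures the Cox4i1 call was lost with equal medians, array weights, the covariate and the compared groups alone. Leaving out each array gave core medians of -0.51 to -0.19 in the CD95L-T4 fraction contrast. For CD95L-T4 in polysomal RNA it gave 0 to 12 lower and 0 to 2 higher calls, and medians of -0.145 to -0.0775 (members) and -0.19 to -0.0925 (accessory). For the difference of effects the medians were -0.1025 to -0.0325 and -0.1275 to -0.0475. The cause of these shifts was not tested. Deviations of same-numbered samples correlated at -0.23 to 0.22, with 7 of 21 over 0.1. In no comparison made did every pair exceed 0.1, but all 4 pairs of CD95L-T4 total with control polysomal samples, which were not compared, did (0.139 to 0.219). A replicate block over all arrays gave 53 higher and 14 lower members in the control fraction contrast, 49 and 11 in CD95L-T4 cultures, and no call for CD95L-T4; a block within each fraction could not be fitted for the fraction contrasts.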

Other observations

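Transcripts whose translation follows growth signals often begin with a C followed by pyrimidines, as those of cytosolic ribosomal proteins do. A C at the annotated start followed by 4 C or T was found in 8 of 42 cytosolic ribosomal protein genes with a window (19.0%), in 3 of 64 subunit genes (4.69%) and in 2.37% of all genes. Among the subunit genes it was seen in 1 of 11 core genes and 2 of 49 accessory genes. Annotated starts can be off by some bases, so these shares are descriptions of the annotation.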
